A study of Mus musculus with 37 samples.

Results

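Cultured osteosarcoma cells were compared with cultured bone marrow (BM) cells of tumor-bearing mice in 1 genotype, double knockout (DKO). The comparison takes 6 of the 37 mouse RNA sequencing libraries of the series, 3 labelled DKO tumor and 3 labelled DKO BMT, the marrow of tumor-bearing mice. All are from the second of 2 sets in sample order, called set 2 here. The libraries were chosen by their names alone and not by any value in them. In DKO mice the Osx1-Cre transgene, which is active in osteoblast progenitors, deletes both Wwox and Trp53 and switches on the Rosa26-LSL-tdTomato reporter. Marrow was flushed from femurs and tibiae and tumors were minced and digested, and the skeletal site and the age of these mice are not given in the sources used here. RNA was taken after 3 passages in culture, when tdTomato-positive cells dominated, so every library stands for cultured cells and not for whole tissue. Set 2 has 21 libraries in 7 groups of 3. Besides the compared groups it holds tumor and BMT cells of SKO mice, in which the same Cre deletes Trp53 only, marrow of SKO and DKO mice without tumors (yBM), and control marrow from mice that the labels describe as Cre-negative. The question was which genes separate the tumor cells from the marrow cells of tumor-bearing mice. The bone a tumor grew in and the bones that gave the marrow cannot be told apart from the tumor state in this design. Sex was not balanced between the groups either, by the sex-linked genes given below.

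Osteosarcoma is a bone-forming tumor of mesenchymal cells at the stage of the osteoblast lineage. Trp53 encodes p53, which stops the cell cycle or starts cell death after DNA damage, and Wwox encodes a tumor suppressor with WW domains. Hox genes encode transcription factors that lie in 4 clusters. Members at the 5′ end of a cluster, those of high paralog number, are used in the posterior body and the distal limb, and fibroblasts and stromal cells in culture keep much of the Hox pattern of the site they came from. Many ribosomal protein genes and some other housekeeping genes have near-identical copies elsewhere in the mouse genome, most of them retrotransposed, and reads from such copies are hard to assign to a single locus.

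All values are TPM, a transcript level scaled by length and to a fixed library total, from which the number of reads behind a value cannot be recovered. The DKO tumor libraries held 12146 to 12497 genes at 1 TPM or more and the DKO BMT libraries 11372 to 12689, and mitochondrial genes took 10.4% to 12.3% and 11.1% to 13.1% of the TPM. Pearson correlations of log2(TPM + 1) across the tested genes were 0.928 to 0.943 between tumor libraries, 0.850 to 0.899 between BMT libraries and 0.872 to 0.928 between the groups, so the BMT libraries differed among themselves at least as much as from the tumors. DKO BMT 2 stood apart. The 7 macrophage markers summed to 1041 TPM there and to between 3.24 and 6.31 TPM in the other 5 libraries, where between 0 and 4 of the 7 were listed at 0. Lyz2, the lysozyme of macrophages, was at 825 TPM in DKO BMT 2 and at most 3.54 TPM in the others. DKO BMT 3 had the lowest sum of mesenchymal markers, with 131 TPM over 6 genes against 887 to 1736 TPM in the other 5 libraries. Lepr went the other way, at 12.9 TPM there and at most 2.39 TPM in the others. The sum of osteoblast markers was also lowest in DKO BMT 3, with 429 TPM over 6 genes against 1036 to 4764 TPM. Lymphocyte and erythroid markers summed to under 1 TPM in all 6. Col1a1, the main collagen of bone, was at 4316, 1314 and 1013 TPM in DKO tumor 1, 2 and 3 and at 4378, 4555 and 406.5 TPM in DKO BMT 1, 2 and 3. The Y-linked gene Ddx3y was at 8.27, 13.4 and 15.6 TPM in the tumors and at 12.3 TPM in DKO BMT 1, but at 0 in DKO BMT 2 and 3, where Xist was at 27.0 and 13.1 TPM. The tumor and BMT libraries numbered 2 and 3 thus differed in their sex-linked genes. Every tumor library held Ddx3y, but of the marrow libraries only DKO BMT 1 did. Sex was therefore not balanced between the groups, and its part in the differences was not tested.

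The targeted genes were examined as a check of the labels. Trp53 was at 3.69, 4.82 and 4.12 TPM in the libraries labelled DKO tumor and at 1.96, 14.0 and 1.98 TPM in those labelled DKO BMT, against 35.9, 65.9 and 74.9 TPM in control marrow of set 2. All 6 were thus below the controls, and DKO BMT 2, with the macrophage markers, was the highest. Wwox was at 5.23, 4.78 and 4.26 TPM in the libraries labelled DKO tumor and at 0.0164, 0.300 and 0.242 TPM in those labelled DKO BMT. In control marrow it was at 4.05, 2.97 and 3.74 TPM. The 3 tumor libraries lay above all controls for a gene that their label gives as deleted, and the 3 BMT libraries lay below all of them. The difference of 2.28 ± 0.66 (SE) on the log2(TPM + 1) scale was not called (adjusted p = 0.768). The libraries labelled SKO tumor, whose mice keep Wwox, were at 7.63, 2.78 and 6.94 TPM, but those labelled SKO BMT were at 11.8, 0.102 and 0.0857 TPM, so SKO BMT 2 and 3 go against their label as well. A gene-level TPM sums all transcripts and does not show which exons were read, and the libraries are named by their labels throughout, with the Wwox level of the libraries labelled DKO tumor going against the label.

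Of 14458 genes tested across set 2 with limma, 12 were called at an adjusted p under 0.05, 0.0830% of the genes tested. In 9 of them (0.0622%) the libraries labelled DKO tumor had the higher level and in 3 (0.0207%) the lower level. The median difference over all genes was 0.01 on the log2 scale, and a typical gene had an SE of 0.44. At an unadjusted p under 0.05 there were 565 genes (3.91%), 303 higher (2.10%) and 262 lower (1.81%). The 3 tumor and 3 BMT values did not overlap for 1002 genes (6.93%), 481 higher in tumor (3.33%) and 521 lower (3.60%). An exact two-sided permutation test of 3 against 3 cannot go below 0.10, so the calls rest on the spread pooled over genes and over the 7 groups. The 12 genes are labelled in the plot of difference against level.

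**Figure D1:**
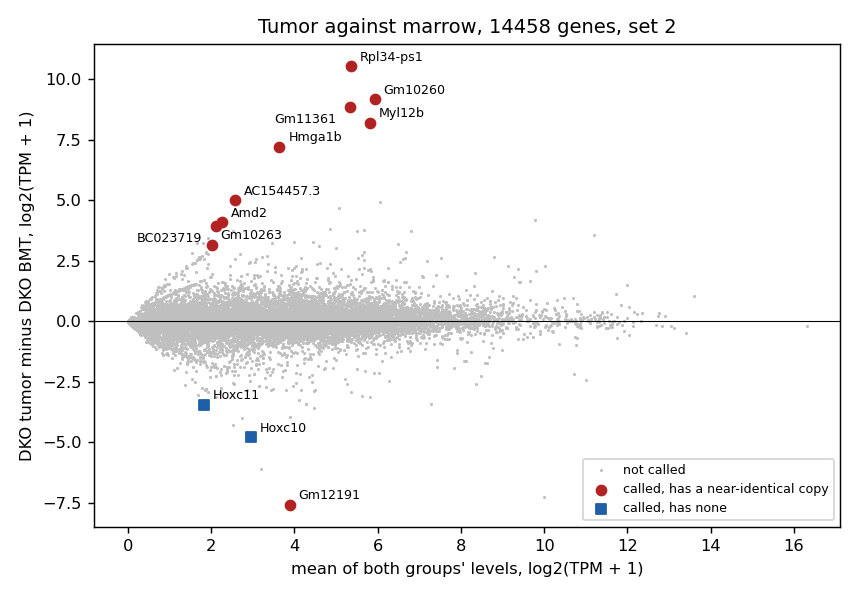
Each point is 1 of the 14458 genes of set 2, placed by its level (x axis, mean of the log2(TPM + 1) of the 2 group mean TPM) and by DKO tumor minus DKO BMT (y axis, log2(TPM + 1)). Circles mark the 10 called genes that have a near-identical copy and squares the 2 that have none, Hoxc10 and Hoxc11, both lower in tumor.

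Most of the called genes were copies. A gene was said to have a near-identical copy where a transcript of another gene matched it at 95% identity or more over at least 80% of the shorter transcript. This held for 10 of the 12 called genes (83.3%) and for 2277 of the 14289 tested genes with a transcript in GENCODE M21 (15.9%). The partner of each was its best-scoring named protein-coding copy, or its best-scoring copy where there was none. The identity of each of the 10 with this partner ran from 96.4% to 100%. Stretches of 60 bases from 3 pairs are shown because they let a reader see how few bases tell the called gene from its partner. The letters are from GENCODE M21 transcripts (assembly GRCm38.p6), 5′ to 3′, and capitals mark the bases that differ between the pair. Amd2 and Amd1 encode S-adenosylmethionine decarboxylase, an enzyme of polyamine synthesis, and differed at 10 of 3198 aligned bases.
Amd2: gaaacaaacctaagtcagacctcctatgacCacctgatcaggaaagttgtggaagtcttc
Amd1: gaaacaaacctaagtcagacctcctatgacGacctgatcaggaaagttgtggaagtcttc
Gm10260 is a copy of Rps18, a protein of the small ribosomal subunit, and differed from it at 5 of 545 bases, 2 of them in this stretch.
Gm10260: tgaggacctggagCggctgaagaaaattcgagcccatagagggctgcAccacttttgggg
Rps18: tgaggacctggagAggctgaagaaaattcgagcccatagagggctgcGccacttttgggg
Gm12191 is a processed pseudogene of Rpl30, a protein of the large ribosomal subunit, and differed from it at 1 of 348 bases.
Gm12191: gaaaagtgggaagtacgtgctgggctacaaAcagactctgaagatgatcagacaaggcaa
Rpl30: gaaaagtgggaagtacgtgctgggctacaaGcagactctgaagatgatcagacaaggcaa

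The copies behaved as genes that were present in one group and nearly absent from the other. Amd2 was at 18.9, 21.6 and 15.6 TPM in the libraries labelled DKO tumor 1, 2 and 3, and at 0, 0.340 and 0.129 TPM in DKO BMT 1, 2 and 3. Its difference of 4.09 ± 0.38 (SE) had the smallest adjusted p of all genes (4.19e-05). Gm10260 was at 2014, 739.7 and 1688 TPM in tumor and at 1.52, 0.500 and 2.45 TPM in BMT, a difference of 9.17 ± 1.31 (adjusted p = 0.00459). A further copy of Rps18, Gm11361, was at 1153, 546 and 892 TPM against 1.17, 0 and 1.55 TPM (8.87 ± 1.22, adjusted p = 0.00459). For these 3 genes every tumor library was far above every BMT library. The gene of identifier ENSMUSG00000117098, which carries the symbol Myl12b like its partner ENSMUSG00000034868 and encodes a regulatory light chain of non-muscle myosin, was at 1130, 855 and 789 TPM against 4.07, 2.55 and 0.632 TPM (8.21 ± 1.38, adjusted p = 0.0199). Gm10263, a pseudogene of the ribosomal protein gene Rps28, was at 15.7, 6.23 and 11.1 TPM against 1.05, 0 and 0 TPM (3.16 ± 0.45, adjusted p = 0.00459). BC023719, an RNA of unstated function annotated as antisense, was at 19.4, 9.45 and 20.5 TPM against 0.154, 0 and 0.108 TPM (3.94 ± 0.66, adjusted p = 0.0199), and its partner is A930015D03Rik. These groups were again separate in every library.

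The remaining 4 copies were listed at 0 in all libraries of one group, so no fold is given for them. Rpl34-ps1, a pseudogene of Rpl34, was at 976, 1249 and 2816 TPM in the libraries labelled DKO tumor and was listed at 0 in the 3 BMT libraries (adjusted p = 0.0327). Hmga1b, whose partner Hmga1 encodes a chromatin protein that bends DNA at AT-rich sites, was at 96.7, 159 and 208 TPM and listed at 0 in BMT (adjusted p = 0.0193). AC154457.3, a pseudogene of the mitochondrial ribosomal protein gene Mrps10, was at 38.3, 17.6 and 45.9 TPM and listed at 0 in BMT (adjusted p = 0.00459). The Rpl30 copy Gm12191 went the other way, at 112, 166 and 374 TPM in BMT and listed at 0 in the tumors (adjusted p = 0.0181). It was the single copy among the called genes that was lower in tumor.

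**Figure D2:**
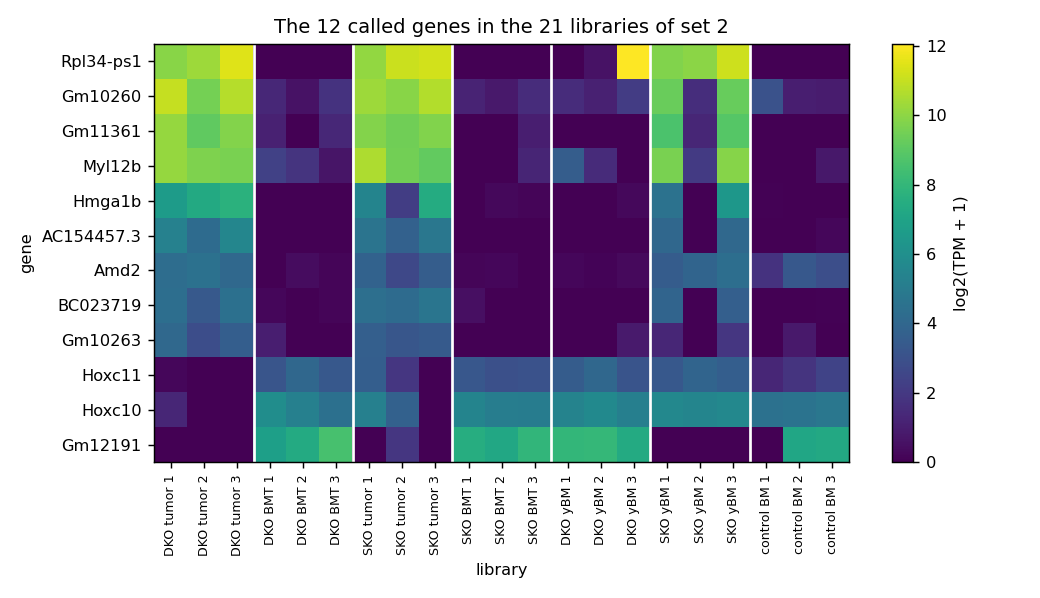
Level of the 12 called genes (rows, log2(TPM + 1), color scale) in the 21 libraries of set 2 (columns, grouped by label). The 9 genes higher in tumor are bright in the DKO tumor columns and dark in the DKO BMT columns, and Gm12191, Hoxc10 and Hoxc11 show the reverse.

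With the TPM of near-identical copies added up, most of these differences were small. Rps18 was at 424, 1689 and 441 TPM in the libraries labelled DKO tumor and at 2974, 1996 and 5005 TPM in BMT, a difference of -2.18 that was not called (adjusted p = 0.953). Rps18 summed with its 5 copies, Gm10260 and Gm11361 among them, came to 3591, 2975 and 3022 TPM in tumor and 2978, 1996 and 5010 TPM in BMT, a difference of 0.04 ± 0.39 on the log2 scale. Those sums overlapped. Amd1 was at 50.2, 55.4 and 43.7 TPM in tumor and 57.6, 58.8 and 42.0 TPM in BMT, and the sum with Amd2 and 4 other copies differed by 0.37 ± 0.36. Rpl34 was at 1051, 1117 and 612 TPM in tumor and 1315, 1249 and 2999 TPM in BMT, and its sum with the copies differed by 0.59 ± 0.48. Sums differed by -0.21 for the Rps28 group, 0.10 for the Rpl30 group, 0.44 for Mrps10, 0.53 for Myl12b and 0.90 for Hmga1, each with an adjusted p of 1. The sums of 7 of the 10 genes overlapped between the groups. Those of Myl12b, at 2179, 2113 and 2002 TPM against 1419, 1526 and 1427 TPM, and of Amd2, at 69.6, 77.0 and 59.3 TPM against 57.6, 59.3 and 42.3 TPM, did not. The BC023719 sum did not overlap either and was the most different, at 26.2, 15.3 and 29.8 TPM in tumor and 3.15, 3.5 and 0.929 TPM in BMT (2.86 ± 0.51, adjusted p = 0.115).

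With the copies of each family summed, no gene or family of 13482 was called, 483 had an unadjusted p under 0.05, and the smallest adjusted p was 0.10. With all genes that have a copy left out, none of 12181 was called, 433 had an unadjusted p under 0.05, and the smallest adjusted p was 0.0918. These fits were added after the copies had been noticed. Leaving out DKO tumor 3 left 1 call, Amd2. Without DKO tumor 1 there were 6 calls, without DKO tumor 2 there were 7, without DKO BMT 3 there were 6, without DKO BMT 1 there were 10 and without DKO BMT 2, the library with macrophage markers, there were 14, of which 6 were among the 12. Amd2 on its own was called in all 17 other settings that tested it.

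**Figure D3:**
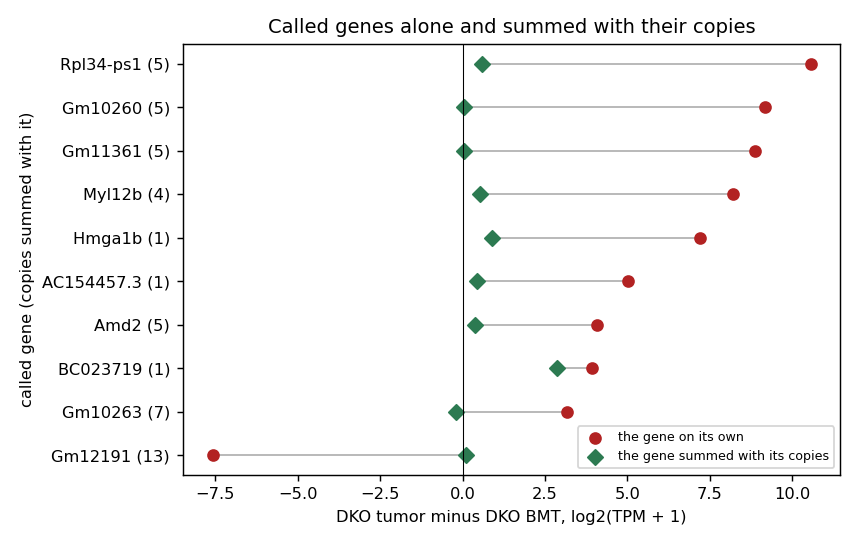
For the 10 called genes with a near-identical copy (rows, with the number of copies summed in parentheses), DKO tumor minus DKO BMT on the log2(TPM + 1) scale is shown for the gene alone (circles) and summed with its copies (diamonds). The diamonds lie between -0.21 and 2.86, near 0 for most rows, and the size of a circle's value for genes listed at 0 in one group depends on the pseudocount of 1.

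The presence of the copies also varied outside the compared libraries. In the other genotype, Gm10260 was at 1252, 970.6 and 1629 TPM in SKO tumors and at 1.32, 0.760 and 1.85 TPM in SKO BMT, and Amd2 at 12.8, 5.09 and 10.6 TPM against 0.103, 0.150 and 0 TPM. For Amd2, marrow of mice without tumors was at 0.159, 0.0880 and 0.220 TPM in DKO and at 10.4, 13.8 and 19.6 TPM in SKO, and control marrow was at 2.35, 8.89 and 6.38 TPM. In the marrow of SKO mice without tumors Gm10260 was split, at 631 and 619 TPM in libraries 1 and 3 and at 2.03 TPM in library 2. Hmga1b was high in both DKO groups of set 1, at 717, 269 and 264 TPM in tumor and 400, 469 and 758 TPM in BMT, where Gm10260 was under 1 TPM in all 6 libraries.

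Hoxc10 and Hoxc11 were the called genes without a near-identical copy. Both encode posterior Hox factors of the HoxC cluster that are active in the hindlimb. Hoxc10 was at 1.46, 0 and 0 TPM in the libraries labelled DKO tumor 1, 2 and 3 and at 58.9, 37.3 and 21.1 TPM in DKO BMT 1, 2 and 3, a difference of -4.78 ± 0.82 (SE, adjusted p = 0.0223). Hoxc11 was at 0.165, 0 and 0 TPM against 8.16, 15.3 and 9.15 TPM (-3.45 ± 0.59, adjusted p = 0.0223). Every tumor library was below every BMT library for both. Hoxc10 stood at 21.8, 22.9 and 26.3 TPM in control marrow and at 40.8, 51.2 and 36.5 TPM in DKO marrow without tumors, so the tumors were also below these. The calls were narrow. Leaving out any 1 of the 6 libraries moved both above the threshold, with adjusted p of 0.0516 to 0.135 for Hoxc10 and 0.0588 to 0.135 for Hoxc11, while the differences stayed between -5.21 and -4.43 and between -3.61 and -3.20.

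Among the other clusters the posterior HoxA genes were also lower in tumor by level, without being called. Of 39 Hox genes in the list, 29 were tested and 10 were too low. Of the 29, 25 had a lower mean level on the log2 scale in tumor and 4 a higher one, 9 had an unadjusted p under 0.05 with a lower value (1.81% of all genes) and 1 with a higher value (2.10% of all genes), and 2 were called. The median difference was -0.78, against 0.01 over all genes tested, and it was -0.31 without DKO tumor 3 and -1.99 with a filter of 5 TPM. For 8 Hox genes the tumor libraries lay below the BMT libraries with no overlap and for 1 above, against 3.60% and 3.33% of all genes. Hoxa10, a factor of limb and uterus patterning, was at 0.964, 0 and 0 TPM in tumor and 32.8, 22 and 17.5 TPM in BMT (-4.28 ± 0.89, adjusted p = 0.132). Hoxa9, which also acts in blood stem cells, was at 0.390, 0 and 0 TPM against 8.74, 10.1 and 5.91 TPM (-3.02 ± 0.67, adjusted p = 0.205). Hoxa7, which falls in paralog groups 1 to 8 and not at the posterior end, was at 4.16, 0.325 and 0 TPM against 9.42, 5.90 and 8.19 TPM (-2.20 ± 0.70, adjusted p = 0.953). Hoxa11, needed for the forearm and lower leg, was listed at 0 in the 3 tumors and was at 1.43, 2.08 and 7.41 TPM in BMT (adjusted p = 1). Hoxc13, known for its role in hair and nails, was at 0.613, 0.714 and 1.33 TPM against 4.12, 11.7 and 5.53 TPM (-2.01 ± 0.67, adjusted p = 1). All of these values were separate between the groups. Hoxc9 and Hoxc6 were not, since DKO tumor 1 held 5.69 and 27.0 TPM of them, within the BMT ranges of 4.88 to 9.40 TPM and 6.98 to 28.4 TPM, while tumors 2 and 3 were at 0.0307 TPM or less.

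Summed by position, the groups were separate at the posterior end of HoxA and HoxC and overlapped at that of HoxB and HoxD. Over all clusters, genes of paralog groups 9 to 13 summed to 31.7, 4.66 and 3.82 TPM in the libraries labelled DKO tumor and to 159, 111 and 97.2 TPM in BMT. Genes of groups 1 to 8 summed to 125, 44.6 and 14.2 TPM and to 133, 55.6 and 39.4 TPM, so that DKO tumors 1 and 2 lay inside the BMT range. Posterior HoxA genes made 1.56, 0 and 0 TPM in tumor and 43.0, 34.2 and 30.9 TPM in BMT, and posterior HoxC genes 8.02, 0.912 and 1.36 TPM against 82.2, 74.7 and 42.1 TPM. Posterior HoxB genes made 21.6, 1.42 and 0.0686 TPM against 30.2, 2.16 and 24.2 TPM, and posterior HoxD genes 0.528, 2.33 and 2.39 TPM against 4.07, 0.0755 and 0 TPM. Anterior HoxC genes were low in tumors 2 and 3 as well, at 61.1, 0.145 and 0.0196 TPM in tumor against 40.5, 19.6 and 9.46 TPM in BMT. The whole HoxC cluster summed to 69.2, 1.06 and 1.38 TPM in tumor and 123, 94.4 and 51.5 TPM in BMT. HoxD went the other way in tumors 2 and 3, with 3.08, 13.6 and 14.9 TPM in tumor against 5.35, 0.808 and 0.0392 TPM in BMT. Hoxd8 made up most of the sum in the tumors, at 2.37, 10.3 and 11.8 TPM against 0.972, 0.733 and 0.0392 TPM (2.37 ± 0.75, adjusted p = 0.953), and the antisense RNA Hoxd3os1 was at 2.55, 11.2 and 10.9 TPM against 0.701, 0.434 and 0 TPM (2.57 ± 0.76, adjusted p = 0.795). At least 1 TPM was reached by 21, 11 and 4 Hox genes in the tumors and by 29, 21 and 20 in BMT.

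**Figure D4:**
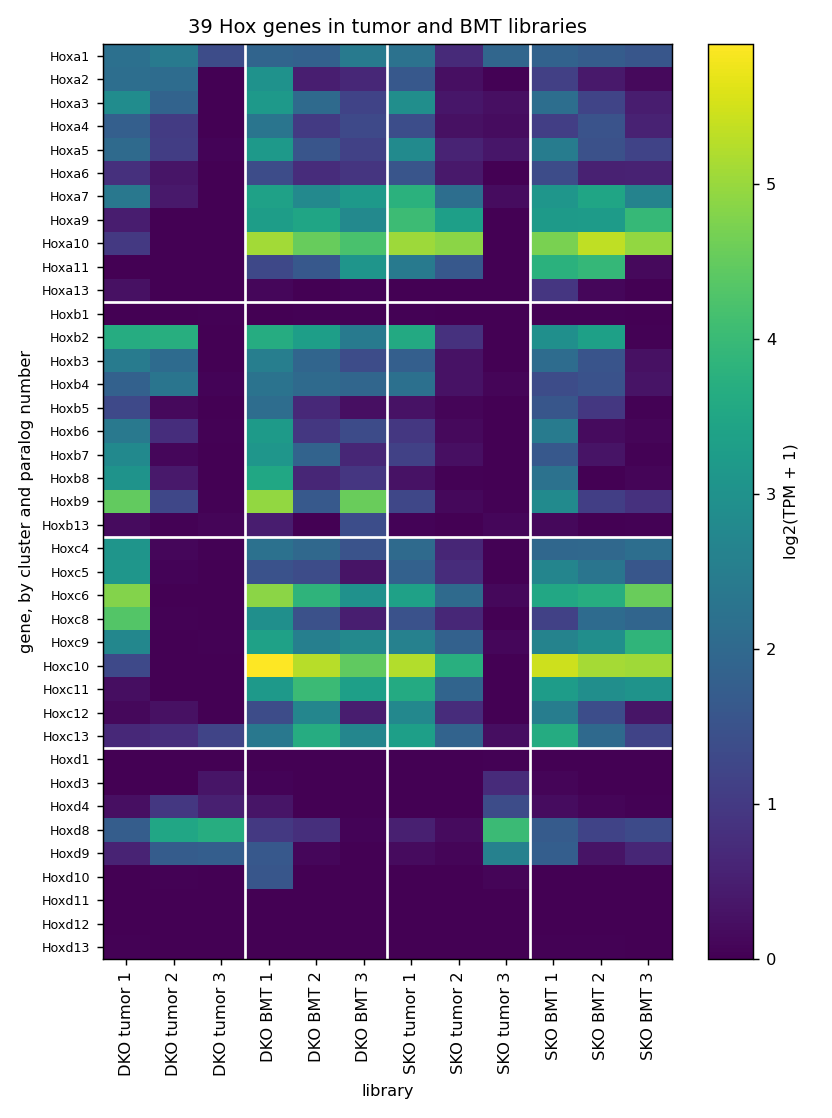
Level of 39 Hox genes (rows, by cluster and paralog number, log2(TPM + 1), color scale) in the tumor and BMT libraries of both genotypes of set 2 (columns). The rows of Hoxa9, Hoxa10, Hoxc10 and Hoxc11 are dark in the 3 DKO tumor columns and in SKO tumor 3 and bright in the BMT columns.

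The posterior sum also varied among tumors outside the comparison. It was 121, 60.5 and 5.44 TPM in SKO tumors 1, 2 and 3 and 65.2, 5.90 and 137 TPM in DKO tumors 1, 2 and 3 of set 1, so 1 tumor of each group was near the level of DKO tumors 2 and 3 of set 2. The skeletal sites of these tumors were not analysed here, so their part in the Hox levels was not tested.

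Apart from the called copies and Hox genes, genes that met the naming rule did not reach a call. Efemp1, a fibulin of the extracellular matrix, was at 135, 55.3 and 215 TPM in the libraries labelled DKO tumor and at 4.22, 17.3 and 0.0476 TPM in BMT (4.67 ± 1.41, adjusted p = 0.851). Spaca6, a sperm membrane protein, was at 31.8, 45.0 and 20.0 TPM against 15, 4.13 and 2.27 TPM (2.29 ± 0.68, adjusted p = 0.795). Tcfl5, a basic helix-loop-helix factor of the germ line, was at 7.5, 3.93 and 7.56 TPM against 0.0474, 2.58 and 0 TPM (2.19 ± 0.59, adjusted p = 0.635). Each was higher in every tumor library than in any BMT library, a separation that the naming rule required. In the other direction, Stxbp2, which acts in vesicle release, was at 1.49, 2.87 and 4.77 TPM against 50.5, 24.7 and 13.6 TPM (-2.81 ± 0.77, adjusted p = 0.693). Klhl30, of the kelch family, was at 0.522, 0.605 and 0.158 TPM against 1.14, 5.32 and 23.2 TPM (-2.28 ± 0.66, adjusted p = 0.768). Xlr, an X-linked gene with a near-identical copy, was at 1.15, 1.73 and 1.26 TPM against 9.55, 15.5 and 13.6 TPM (-2.53 ± 0.73, adjusted p = 0.768).

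Genes of antigen presentation were mostly lower in tumor by level. Of 20 tested genes of MHC class I and its peptide loading, 16 had a lower and 4 a higher mean. At an unadjusted p under 0.05 there were 2, both lower (1.81% of all genes), and none was called. The median difference was -0.52, or -0.92 without DKO tumor 1 and -0.30 without DKO BMT 1. H2-T22, a class Ib molecule with a near-identical copy, was at 6.46, 15.2 and 3.38 TPM in the libraries labelled DKO tumor and 62.1, 52.6 and 28.7 TPM in BMT (-2.52 ± 0.51, adjusted p = 0.115), and H2-T23, the class Ib gene of the Qa-1 molecule, which also has near-identical copies, was at 7.07, 3.84 and 3.03 TPM against 28.1, 17.0 and 17.5 TPM (-1.98 ± 0.54, adjusted p = 0.635). Neither group pair overlapped. H2-T10, a pseudogene in part of mouse strains and the copy of H2-T22, was at 22.4, 5.30 and 12.8 TPM against 1.26, 3.00 and 0.0311 TPM (2.59 ± 0.90, adjusted p = 1), the opposite direction. Of 40 interferon-stimulated genes 39 had a lower mean in tumor, with a median of -1.16, or -0.50 without DKO BMT 1 and -2.20 with it as the only marrow library. Of these, 1 had an unadjusted p under 0.05, with a lower value (1.81% of all genes), and none was called. The mean level of the list ran from 1.30 to 3.67 in tumor and from 1.90 to 4.53 in BMT on the log2 scale. Isg15, a ubiquitin-like protein whose gene has a near-identical copy, was at 110, 15.7 and 2.54 TPM in tumor and at 270.5, 88.6 and 43.9 TPM in BMT (-2.46 ± 1.30, adjusted p = 1), and Ifi44, a marker of interferon response, at 6.84, 1.14 and 0.0296 TPM against 20.1, 13.7 and 1.84 TPM (-1.89 ± 0.88, adjusted p = 1). DKO tumor 1 lay inside the BMT range for both.

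Genes of mitosis and replication had higher means in tumor, with no member called. All 32 tested genes of mitosis and the kinetochore had a higher mean on the log2 scale, 8 of them with an unadjusted p under 0.05 (2.10% of all genes were higher at this p), and the median difference was 0.89. Their mean level was 5.38, 6.04 and 5.43 on the log2(TPM + 1) scale in the libraries labelled DKO tumor and 5.44, 5.27 and 3.20 in BMT, so that DKO BMT 3 was the library that stood low and DKO BMT 1 lay above DKO tumors 1 and 3. With DKO BMT 1 as the only marrow library the median was 0.19, and without it 1.33. Ndc80, a kinetochore protein that holds microtubules and whose gene has a near-identical copy, was at 13.7, 34.2 and 29.4 TPM against 10.3, 20.5 and 3.80 TPM (1.25 ± 0.49), and Birc5, the survivin of the chromosomal passenger complex, at 136, 184 and 140 TPM against 116, 88.7 and 16.8 TPM (1.42 ± 0.62). Birc5 was separate between the groups and Ndc80 was not. Cyclins, CDK inhibitors and E2F genes were mixed, with 16 higher and 8 lower means of 24, a median of 0.14 and 1 member with an unadjusted p under 0.05, which was lower (1.81% of all genes). All 37 tested genes of replication origins and the helicase had a higher mean, 6 with an unadjusted p under 0.05, with a median of 0.59, or 0.16 with DKO BMT 1 as the only marrow library and 0.99 without it. Gins1, a subunit of the replicative helicase, was at 21.2, 25.6 and 18.3 TPM against 12.7, 10.0 and 4.37 TPM (1.27 ± 0.43, adjusted p = 1). Of 49 DNA repair genes, 41 had a higher mean, 4 had an unadjusted p under 0.05, all higher, and the median was 0.34, or -0.09 with DKO BMT 1 as the only marrow library. Chek1, the kinase of the replication checkpoint, was at 27.1, 35.5 and 31.8 TPM against 15, 11.1 and 1.26 TPM (2.09 ± 0.68, adjusted p = 0.956), and Brca2, which acts in repair by homologous recombination, at 4.88, 10.0 and 8.48 TPM against 4.90, 3.15 and 0.333 TPM (1.41 ± 0.56, adjusted p = 1).

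Neither Myc nor the genes that the study names beside it were called. Myc, a transcription factor of growth and proliferation, was at 168, 113 and 45.9 TPM in the libraries labelled DKO tumor and at 90.7, 51.8 and 82.2 TPM in BMT (0.39 ± 0.62, adjusted p = 1). Mcm7, a subunit of the replicative helicase, has a near-identical copy and was at 121, 129 and 57.5 TPM against 115, 59.8 and 86.6 TPM (0.19 ± 0.48). Rrp9, which acts in ribosome assembly, was at 116, 107 and 50.4 TPM against 75.2, 54.1 and 61.1 TPM (0.44 ± 0.44). For these 3 genes DKO tumor 3 lay below all BMT libraries and tumors 1 and 2 did not. Rcc1, the exchange factor of the GTPase Ran, was at 63.1, 70.7 and 24.1 TPM against 42.8, 40.4 and 22.2 TPM, and Ran, which has a near-identical copy, at 489, 496 and 329 TPM against 379, 315 and 392 TPM. Mylk, the myosin light chain kinase, was at 15.3, 2.95 and 16.1 TPM against 18.8, 221 and 5.77 TPM (-1.58 ± 1.40), and Nid2, of the basement membrane, at 50.7, 23.9 and 17.2 TPM against 45.0, 88.7 and 3.71 TPM (0.09 ± 1.12). The groups overlapped for all 7 genes, and each had an adjusted p of 1. Mcm7 and Nid2 changed sign under other settings, given with the processing below, and Myc did so without DKO tumor 1, at -0.01. Of 36 nucleolar and ribosome assembly genes, 29 had a higher mean in tumor, and 4 had an unadjusted p under 0.05, all higher (2.10% of all genes). The median was 0.21, or 0.0064 without DKO tumor 2 and 0.46 without DKO tumor 3. Npm1, the nucleolar chaperone, has a near-identical copy and was at 785, 1573 and 1140 TPM against 603, 764 and 665 TPM (0.73 ± 0.31, adjusted p = 1), with no overlap. Of 16 genes of the Ran cycle, 14 had a higher mean, and Ranbp1 was at 414, 501 and 357 TPM against 308, 259 and 140 TPM (0.91 ± 0.32, adjusted p = 1).

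Sterol synthesis went the other way. All 24 tested genes had a lower mean in the libraries labelled DKO tumor, 7 with an unadjusted p under 0.05 (1.81% of all genes) and 5 with no overlap (3.60% of all genes). None was called. The median difference was -0.65, or -1.0 without DKO tumor 1 and -0.39 without DKO tumor 3. Fdps, which makes farnesyl diphosphate and has a near-identical copy, was at 240, 112 and 116 TPM in tumor and at 327, 345 and 432 TPM in BMT (-1.31 ± 0.37, adjusted p = 0.757). Lss, the cyclase that closes the sterol rings, was at 37.7, 19.4 and 13.2 TPM against 50.1, 58.0 and 62.7 TPM (-1.37 ± 0.47, adjusted p = 1), and Cyp51, the sterol demethylase, at 41.4, 30.8 and 29.6 TPM against 86.6, 71.1 and 50.3 TPM (-0.99 ± 0.36, adjusted p = 1). All 3 were lower in every tumor library than in any BMT library.

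Genes of differentiation varied widely among the BMT libraries. Of 15 smooth muscle and contractile genes, 10 had a higher mean in tumor and 5 a lower one, and 2 had an unadjusted p under 0.05, both higher (2.10% of all genes). The median was 0.81, or 0.22 without DKO BMT 3 and 1.90 without DKO BMT 2. Myl9, a myosin light chain, was at 831, 1176 and 1817 TPM in tumor and at 227, 2302 and 28.3 TPM in BMT (2.28 ± 0.99, adjusted p = 1), so that DKO BMT 2 was above and the other 2 below all tumors. Tagln, an actin-binding protein, had the same order, at 676, 1381 and 1316 TPM against 192, 1919 and 43.3 TPM (2.08 ± 0.93, adjusted p = 1). None of 17 bone matrix genes, 11 osteoblast transcription factors or 16 mesenchymal stromal markers had an unadjusted p under 0.05, and their medians of -0.28, 0.28 and 0.54 changed sign when single BMT libraries were left out or used alone. Of 33 genes of TGF-β, activin and BMP signaling 25 had a higher mean, and 2 had an unadjusted p under 0.05 with a higher value (2.10% of all genes) and 1 with a lower one (1.81%). The median was 0.45, or 0.07 without DKO BMT 3 and 0.94 without DKO BMT 2. The gene with a lower value was Bmp4, a bone-inducing ligand, at 9.65, 45.0 and 32.8 TPM against 159, 65.7 and 131 TPM (-2.14 ± 0.99, adjusted p = 1), with no overlap. Bmp6, a related ligand, was at 9.07, 1.43 and 0.997 TPM against 0.494, 0.840 and 0.483 TPM (1.19 ± 0.55, adjusted p = 1). Of 25 macrophage and other leukocyte markers, 24 had a lower mean in tumor with a median of -1.39 and none passed an unadjusted p of 0.05. Without DKO BMT 2 the median was 0.06. Of 37 p53 targets, 26 had a lower and 11 a higher mean, and 3 had an unadjusted p under 0.05, all lower (1.81% of all genes). Their median was -0.15, or -0.29 without DKO tumor 1. Of 19 endoplasmic reticulum chaperones 18 had a lower mean, with a median of -0.47, or -0.79 without DKO BMT 1 and -0.18 with it as the only marrow library.

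**Figure D5:**
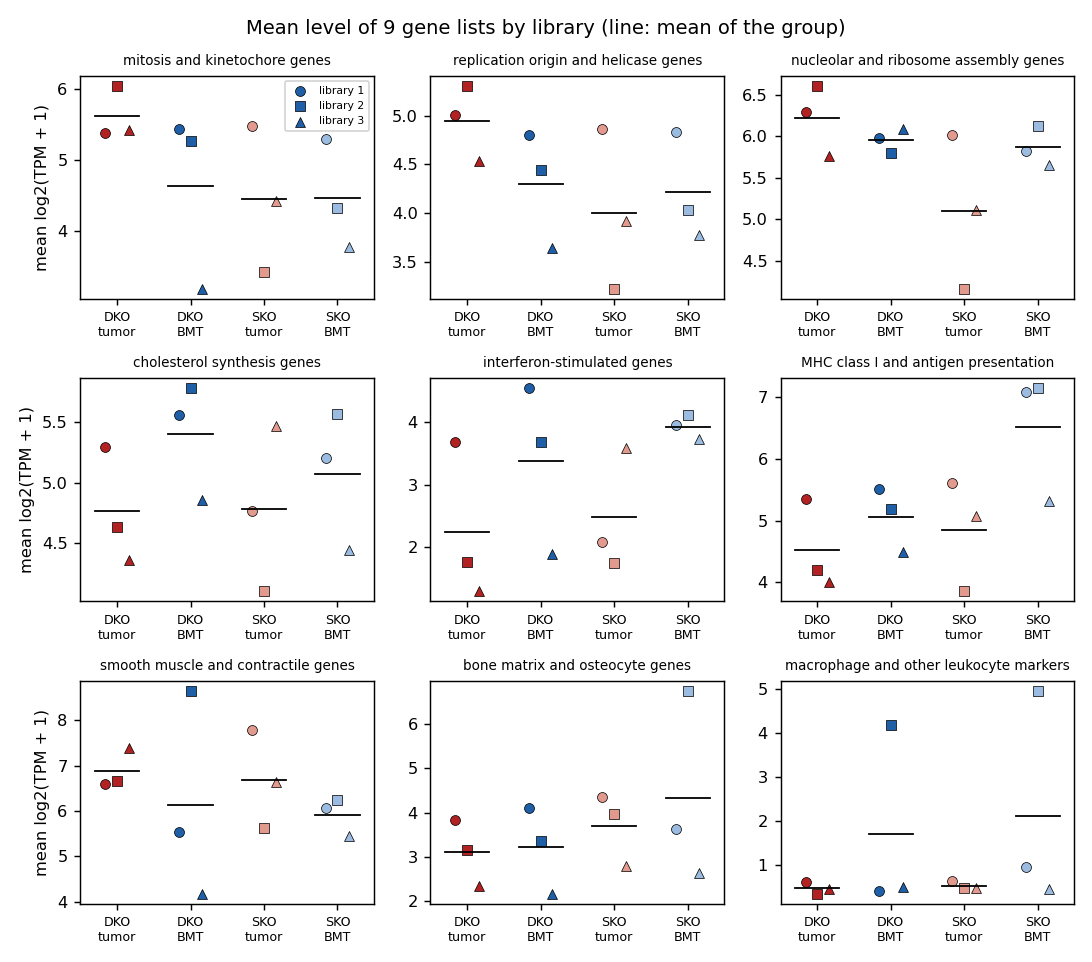
Mean level of 9 gene lists (one panel each, y axis, mean log2(TPM + 1) over the tested members) in the tumor and BMT libraries of DKO and SKO mice of set 2, with a point per library, shaped by its number, and a line at the group mean. The DKO BMT points spread widely, from 3.20 to 5.44 for mitosis genes and from 0.40 to 4.17 for leukocyte markers, and the ranges of both DKO groups overlap in every panel.

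The same contrast in SKO mice, from libraries that the DKO comparison did not use but within the same fit, gave 12 called genes of 14458 (0.0830%), of which 9 (0.0622%) had the higher level in SKO tumor and 3 (0.0207%) the lower. Of these, 9 were among the 12 of the DKO comparison (75% of each list), all in the same direction, and all 9 have a near-identical copy. The mean level of 5 sex-linked genes was 2.61, 3.38 and 3.01 on the log2(TPM + 1) scale in SKO tumors. It was 1.01, 0.731 and 1.03 in SKO BMT, and the part of sex in the SKO calls was not tested. By their Wwox level the libraries labelled SKO BMT 2 and 3 were like DKO BMT and those labelled DKO tumor like SKO tumor, so what is compared here are the labels. The 3 DKO calls that were not SKO calls were Hoxc10, Hoxc11 and Hmga1b. Hoxc10 was at 36.6, 12.3 and 0 TPM in SKO tumors and 43.0, 33.6 and 32.2 TPM in SKO BMT (-2.22, adjusted p = 0.426). The difference between the libraries labelled DKO and SKO was -2.56 ± 1.16 for Hoxc10 (adjusted p = 1.00) and -2.20 ± 0.84 for Hoxc11 (adjusted p = 1.00). H2-T22 was called in SKO (-3.29, adjusted p = 0.00928) and had a difference in the same direction in DKO, and the labels were not shown to differ for it (0.77 ± 0.72, adjusted p = 1.00). Over all genes limma called none for a difference between the labelled genotypes, and 275 (1.90%) had an unadjusted p under 0.05.

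In set 1, the other set, of 16 libraries, 3 tumors and 3 BMT cultures of DKO mice were compared in a separate fit. The paper calls these BMT cells paired with the tumors, and this fit did not pair them. Wwox was at 2.92, 0.0546 and 0.190 TPM in these tumors and 4.74, 0.480 and 1.15 TPM in BMT, against 0.922 to 4.26 TPM in the 4 controls of that set. Tumor 1 and BMT 1 thus go against their label, and BMT 3 also lay inside the control range. There 37 of 14404 genes were called (0.257%), 8 with the higher level in tumor (0.0555%) and 29 with the lower (0.201%). With a term for the replicate number in the fit 4 were called, although the labels do not state that equal numbers mark the same mouse. The calls of the unpaired fit ranged from 0 without tumor 2 to 403 without tumor 1 of set 1. Neither Hoxc10 (-0.57, adjusted p = 0.919) nor Hoxc11 (0.01, adjusted p = 1) was called there, with Hoxc10 at 30.2, 0.0654 and 45.6 TPM in tumor and 25.8, 10.6 and 15.2 TPM in BMT, so that 1 of the 3 tumors had the level seen in set 2. Leukocyte markers differed more strongly in set 1, with a median of -4.71 over 25 genes, while the medians of mitosis genes (0.16) and sterol synthesis genes (0.44) differed from those of set 2 in size or sign. The median difference of the 25 Hox genes tested there was 0.05. A direct test of the set difference called 3 of 15654 genes (0.0192%).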

How the data were processed

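Poly-A RNA of cultured cells was sequenced with a stranded kit. The authors estimated transcript levels with Salmon, after trimming with Trim Galore 0.6.1 and quality control with FastQC, on build mm39 per the labels' processing notes, and deposited TPM for 51123 Ensembl genes in 37 libraries. Salmon shares reads that fit several near-identical transcripts among them by estimation, so TPM of copies are uncertain one by one. TPM hold no read numbers, so depth is unknown and no interval for counting error is given. The authors' own DESeq2 comparisons were not used. Libraries were grouped by their labels, and 3 control columns could be matched to their group only. No deposited column of per-sample values was left unused.

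Genes that reached 1 TPM in 3 or more libraries of a set were tested on log2(TPM + 1) with limma 3.58.1 in R 4.3.3 (moderated test with an intensity trend, all groups of the set in a single fit, Benjamini-Hochberg adjustment over all genes tested, threshold 0.05). Differences are tumor minus BMT and understate the change of low genes. The fit was tested on simulated data. The labels do not tie the replicates of set 2 to mice, although sex-linked genes show that the DKO BMT libraries came from more than 1, so p-values cover the variation among the libraries, which may in part be technical.

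The named genes were those the study discusses, up to 15 called genes in each direction, with a mean of 5 TPM or more in the group of higher level, whose libraries do not overlap, without unnamed gene models and ribosomal pseudogenes and filled to 10 at an unadjusted p under 0.01, the 3 members of smallest p and all called members in each of 49 gene lists, and cell type markers. The called copies left out by this rule, the partners and a few markers were named after their values were seen. The genes, lists and members were chosen with earlier results of these data known.

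Symbols and transcripts came from GENCODE M21 (assembly GRCm38.p6), which matched 48246 of the gene identifiers and left 2877 unmatched. As this is another build than the authors', no coordinates are given. Near-identical copies were found with BLAST 2.17.0 over at least 80% of the shorter transcript at 95% identity, and their TPM were summed or the genes left out as alternatives. The other alternatives were a pseudocount of 0.1, no filter, a filter of 5 TPM, other scalings, array weights, a leukocyte covariate, a fit of the compared groups only, a replicate block, DKO BMT 1 as the only marrow library, and leaving out each library.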

Additional observations from a re-analysis of the deposited data

Results flagged for a closer look

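The tumor-BMT difference of DKO mice differed between set 2 and set 1 by a direct test in limma for 3 genes. For Gpr183, a chemotactic receptor of immune cells, set 2 minus set 1 was 3.87 ± 0.64 (SE, adjusted p = 0.0108). It was at 0.0622, 0.0189 and 0 TPM in DKO tumors and 0, 0.346 and 0 TPM in DKO BMT of set 2, and at 0.720, 0.0152 and 0.0150 TPM in DKO tumors and 8.55, 22.4 and 30.2 TPM in DKO BMT of set 1. The other 2 were copies of ribosomal protein genes, Gm12191 with -7.58 ± 1.34 (adjusted p = 0.0205) and Gm11361 with 8.81 ± 1.41 (adjusted p = 0.0108).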

How the results depend on the processing

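The 12 calls of the DKO comparison became 5 without a filter, 4 with array weights, 7 with the leukocyte covariate and 0 with copies left out or summed, and with DKO BMT 1 as the only marrow library there were 5, of which 1 was among the 12. Leaving out single libraries gave 1 to 14 calls. Deviations of same-numbered DKO tumor and BMT libraries of set 2 correlated at 0.13, -0.14 and 0.03. In set 1, whose BMT cells the paper calls paired with the tumors, they correlated at 0.05, 0.29 and -0.10. With 3 libraries per group such correlations cannot decide whether equal numbers mark the same mouse. In set 2 the sex-linked genes given above differed between the DKO tumor and BMT libraries numbered 2 and 3. Those same-numbered libraries thus did not come from the same mouse, and the replicate block did not pair mice there. The replicate block gave 7 calls in DKO, 7 in SKO and 4 in set 1. The 12 SKO calls became 3 with array weights, 0 with copies left out and 3 with copies summed, and 3 to 16 without single libraries. The difference between genotypes, with 0 calls, had 1 without a filter and 0 to 3 without single libraries. The 37 calls of set 1 became 194 with a pseudocount of 0.1, 3 without a filter, 94 with a filter of 5 TPM, 0 with median-ratio scaling, quantile normalization or the leukocyte covariate, 170 with array weights and 3 with the compared groups only, and 0 to 403 without single libraries. The 3 genes that differed between sets became 0 with a pseudocount of 0.1, 14 with array weights and 1 with the leukocyte covariate, and 1 to 65 without single libraries. Array weights were estimated with a warning that the fit had stopped before its tolerance was reached. The sign changed for Nid2 with quantile normalization (-0.037), array weights (-0.54) and DKO BMT 1 alone (-0.69), with -1.17 to 0.96 without single libraries. It changed for Mcm7 with the leukocyte covariate (-0.034) and DKO BMT 1 alone (-0.26), with -0.052 to 0.56 without single libraries. Trp53 changed sign with median-ratio scaling (-0.00539) and quantile normalization (-0.048), with -0.37 to 0.80 without single libraries, and Myc ranged from -0.012 to 0.91 there. The causes were not tested. Of 17 list medians, 12 had the same sign in all settings. The exceptions were bone matrix (-0.98 to 0.47), osteoblast factors (-0.59 to 0.73), DNA repair (-0.09 to 0.60), and stromal and leukocyte markers, which reached -0.06 without DKO BMT 3 and 0.06 without DKO BMT 2.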
